A study of Canis lupus familiaris with 6 samples.

Results

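The pyruvate dehydrogenase kinases PDK1, PDK2, PDK3 and PDK4, the phosphatase catalytic subunits PDP1 and PDP2 and the complex subunits PDHA1, PDHB, DLAT and PDHX were followed in RasV12 cells cultured alone or among normal cells. These 10 genes were chosen by name, and each probe that the array annotates with one of the names was taken. They are 10 of 34378 different names on the array and held 23 of its 43603 probes, and 20 of the 23 were among the 26535 probes tested.

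The cells were MDCK-pTR GFP-RasV12 cells, which are Madin-Darby canine kidney (MDCK) epithelial cells carrying GFP-tagged RasV12, an activated Ras, under a tetracycline-inducible promoter. They were grown on collagen type I either alone (3 arrays, alone replicates 1 to 3) or mixed with MDCK cells without the transgene (3 arrays, mixed replicates 1 to 3). Both cultures received tetracycline for 24 h, and GFP-positive cells were then sorted and their RNA hybridised to 1-colour canine arrays. The comparison asks how transformed cells change when normal cells surround them.

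The labels give no sign of separate cultures or clones, so p-values measure the spread between these samples, which may be technical. One label field, on RNA extraction, names cells with a β-catenin mutant as well, whereas titles, source names and methods give RasV12 cells without it. The methods give 10 MDCK cells to 1 RasV12 cell, but the source name of mixed replicate 2 gives 100 to 1. Each culture had a slide of its own, so a slide effect and a culture effect cannot be told apart.

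The pyruvate dehydrogenase complex sits in the mitochondrial matrix and turns pyruvate, the end product of glycolysis, into acetyl-CoA for the tricarboxylic acid (TCA) cycle. Its E1 enzyme is built from PDHA1 and PDHB, DLAT is the E2 acetyltransferase, and PDHX is the protein that tethers the E3 enzyme DLD to the core. The kinases phosphorylate the PDHA1 subunit and switch the complex off, and the phosphatases PDP1 and PDP2 remove the phosphate and switch it on.

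The PDK4 probes are shown because their signals were unlike each other, and the PDHA1 probes because the subunit carried most of the calls below. Probes are numbered by their start in the transcript that the array annotates. All sequences are from the array annotation, 5′ to 3′, in lower case with no part marked. The first 2 PDK4 probes are given whole and the others by their first 30 of 60 bases.
PDK4 probe 1: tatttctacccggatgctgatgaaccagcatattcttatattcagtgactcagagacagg
PDK4 probe 2: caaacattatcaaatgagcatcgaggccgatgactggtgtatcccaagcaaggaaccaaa
PDK4 probe 3: ttctagcagatggatactgaatgttcaggc
PDHA1 probe 1: attgcatgtgttttgtacaacaactgtaca
PDHA1 probe 2: aagtaatctctagacccaacatggggctcg
PDHA1 probe 3: attgccaaaatgcagttcctcgcttaacta

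In canFam3, the build of the array annotation, PDK4 lies on the minus strand of chromosome 14. Its probe 1 covers chr14:20835157-20835381, a span longer than the probe, starting at base 497 of the transcript. Probe 2 covers chr14:20827966-20828025 and starts at base 1148. Probe 3 covers chr14:20825924-20825983 and starts at base 3190, far towards the 3′ end. PDHA1 lies on the plus strand of the X chromosome, with probe 1 at chrX:15352153-15352212, probe 2 at chrX:15352542-15352601 and probe 3 at chrX:15353306-15353365. These start at bases 1411, 1800 and 2564 of the transcript. Whether the 3′ probes lie in coding or untranslated sequence was not analysed here.

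DLAT and PDHX are related proteins, and 2 of their probes fall on a matching stretch. They were aligned without gaps, and the bases that are identical between them are in capitals. The lines are printed without the shift of the alignment, so the first capital of one pairs with the first capital of the other.
DLAT probe 2: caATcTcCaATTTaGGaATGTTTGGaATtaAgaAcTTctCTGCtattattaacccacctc
PDHX probe 1: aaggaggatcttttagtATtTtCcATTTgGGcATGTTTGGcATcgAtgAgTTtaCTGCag

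Of the 45 aligned bases, 28 were identical. DLAT probe 2 covers chr5:21065540-21065599 and PDHX probe 1 covers chr18:32948877-32951554, both on the minus strand, and the PDHX span is far longer than the probe. Across all member probes, 17 of 23 shared no run of 16 bases with a probe of another gene, and PDHA1 probe 2 shared one with 3 such probes, the most of any.

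Levels are given as scaled intensity, the scanner's background-corrected signal after each array was brought to a common 75th percentile. That percentile lay between 592 and 699.6 before scaling, and each array had 60.8% to 66.4% of its probes well above background. Differences are on the log2 scale, mixed minus alone, with a 95% interval, and were tested with limma's moderated test (two-sided) with Benjamini-Hochberg adjustment over all tested probes. A probe is called where its adjusted p is under 0.05. The median SD between replicates was 0.13 over all tested probes.

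Of 8 epithelial marker genes listed, 7 had a probe of that name. Of their 15 probes 2 were not tested, and 13 were well above background on all 6 arrays, among them all EPCAM, KRT18 and CDH1 probes. So were 8 of 18 fibroblast marker probes (of COL1A1, COL1A2 and PDGFRB) and 2 of 9 leukocyte marker probes (of CD14 and CD68), while COL3A1, PDGFRA and PTPRC probes were so on no array. Of 13 tested epithelial marker probes 1 was called, an OCLN probe, higher in mixed culture, and their summed scaled intensity was 348739 to 405381 alone and 368368 to 407521 mixed. The 8 fibroblast and 3 leukocyte marker probes tested had limma adjusted p-values of at least 0.124 and 0.248. The summed scaled intensity of the 8 fibroblast probes was 1009.5 to 1072 alone and 1099.9 to 1184 mixed. That of the 2 leukocyte probes well above background on all 6 arrays was 1058 to 1146 alone and 1173 to 1244 mixed. Of 15 tested probes for Ras-MAPK output genes, 3 were called, all lower in mixed culture (EPHA2, FOSL1 and CCND1). Over all tested probes 11.2% were called, 5.72% as lower. Of the 15 probes, 11 had a difference below 0 and 4 above 0, the highest at 0.39. With the replicate block 4 were called lower and 1 higher. The summed intensity of the 14 well above background on all 6 arrays was 123048 to 126685 alone and 98406 to 111541 mixed. The part of these markers in the results below was not tested. In bulk RNA, fewer cells with a transcript and less of it per cell cannot be told apart.

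Of the 20 tested member probes, 3 were called, and all 3 were lower in mixed culture. They were 1 probe of PDK4, which fell by 19.8%, and 2 of PDHA1, of which one fell by 24.9% and the other fell by 23.7%. Over all tested probes, 11.2% were called, 5.72% as lower and 5.5% as higher in mixed culture. The groups did not overlap at 7 member probes, each with the mixed arrays below, against 19.4% of all tested probes in that direction. The median difference of the members was -0.09, against -0.0037 over all tested probes, and the largest in size was 0.42.

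**Figure D1:**
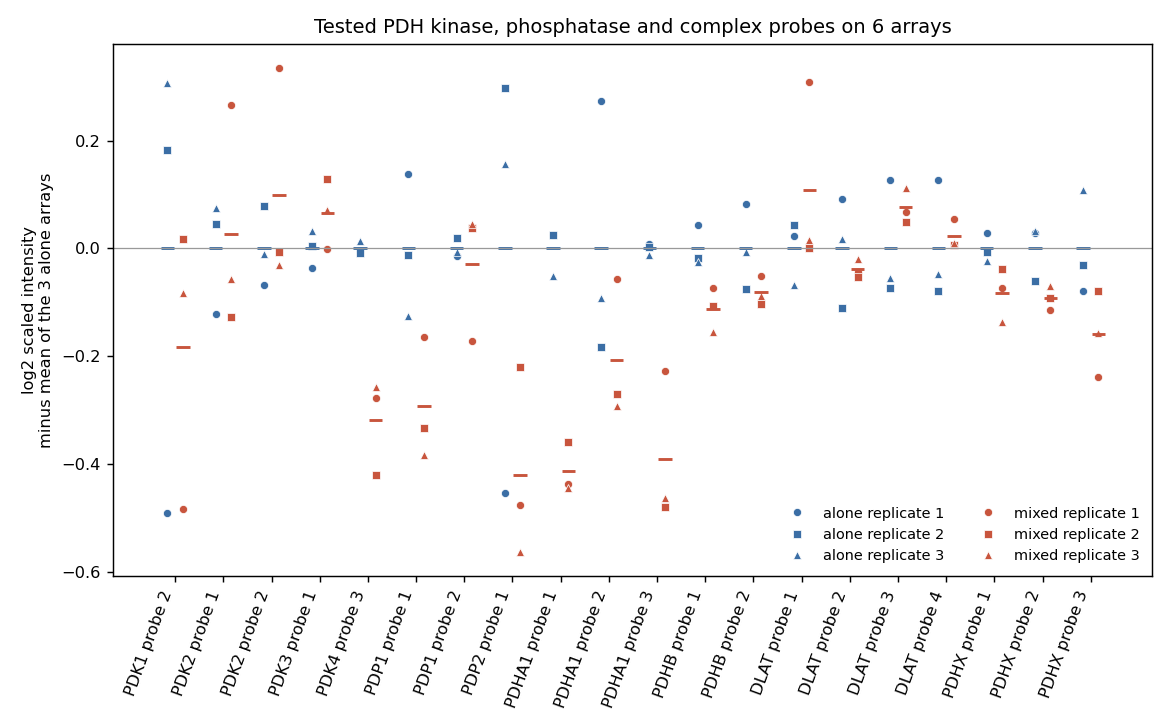
Log2 scaled intensity of each tested member probe on the 6 arrays, relative to the mean of its 3 alone arrays. Circles, squares and triangles are replicates 1, 2 and 3, blue is alone, red is mixed and bars are group means. The mixed arrays lie wholly below the alone arrays at PDK4 probe 3 and at PDHA1 probes 1 and 3, and alone replicate 1 lies far below the other alone arrays at PDK1 probe 2 and PDP2 probe 1.

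Among the kinases, PDK4 probe 3 was the one called. PDK4 is the kinase best known for its rise on fasting and when cells burn fatty acids. Probe 3 read 303, 302 and 307 units on alone replicates 1 to 3, and 251, 227 and 254 on mixed replicates 1 to 3. The alone arrays were almost the same as each other, and every mixed array was below them. The difference was -0.32 (95% interval -0.50 to -0.14, SE 0.07, n = 3 and 3), so the probe fell by 19.8% (limma adjusted p = 0.0433).

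The other PDK4 probes gave no measurable signal. Probe 1 read between 2.0 and 3.79 units and probe 2 between 2.84 and 5.13, and neither was well above background on any of the 6 arrays. The PDK4 call therefore rests on 1 sequence near the 3′ end of the transcript, and the 2 probes nearer the 5′ end gave no fold to set beside it.

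The PDK4 call was close to the threshold. With the replicate number as a block its adjusted p was 0.0583, and without single arrays it was 0.0353 (alone replicate 1), 0.141 (alone replicate 2), 0.146 (alone replicate 3), 0.0709 (mixed replicate 1), 0.14 (mixed replicate 2) and 0.124 (mixed replicate 3), within a range of 0.0353 to 0.146 over all 15 alternatives, while the difference stayed below 0 in all of them (-0.48 to -0.21).

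**Figure D2:**
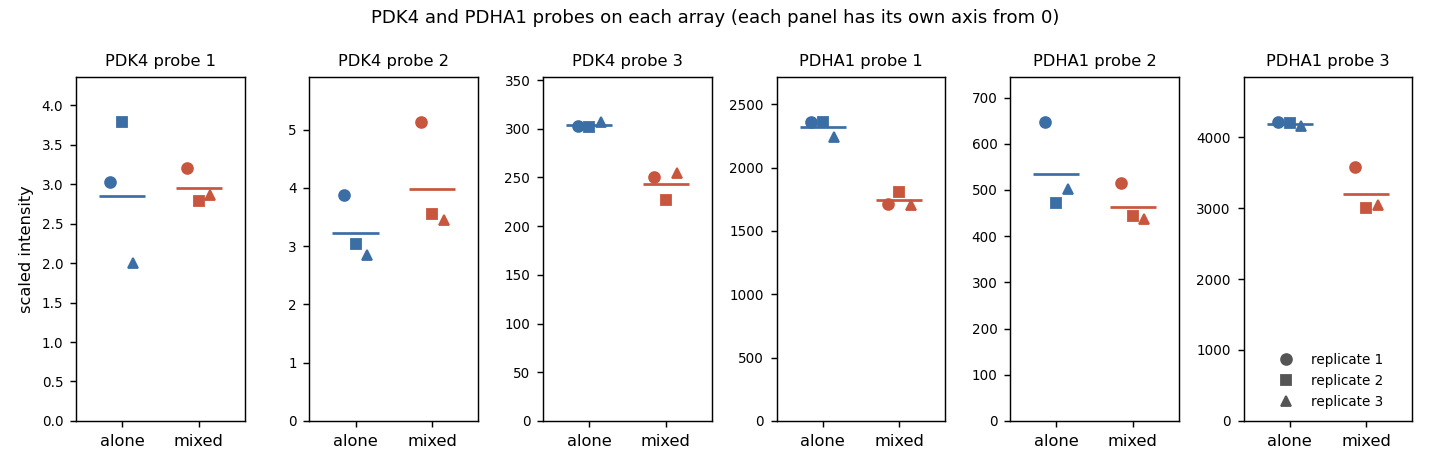
Scaled intensity of the 3 PDK4 and 3 PDHA1 probes on each array, each panel on its own linear axis from 0, with bars at the group's geometric mean. PDK4 probes 1 and 2 read 2.0 to 5.13 units with overlapping groups and are not well above background, while the mixed arrays fall wholly below the alone arrays at PDK4 probe 3 and at PDHA1 probes 1 and 3, and overlap at PDHA1 probe 2.

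PDK1, the kinase known as a target of the hypoxia factor HIF-1, did not pass the test. PDK1 probe 2 read 269, 429 and 468 units alone and 270.0, 383 and 357 mixed. The groups overlapped, since replicate 1 was low in both cultures and the other arrays of the alone group were above all mixed arrays. Its difference was -0.18 (-0.75 to 0.38, limma adjusted p = 0.636). The value turned on single arrays. It was -0.43 when alone replicate 1 was left out (adjusted p = 0.112), -0.09 for alone replicate 2 (0.868), -0.03 for alone replicate 3 (0.957), -0.03 for mixed replicate 1 (0.952) and -0.28 for mixed replicate 2 (0.57). PDK1 probe 1 was well above background on 3 of 6 arrays, read 6.43 to 19.9 units and was not tested. On that probe, too, replicate 1 was the lowest array of each culture.

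PDK2, the kinase found in most tissues, differed by 0.03 at probe 1 (-0.27 to 0.32, limma adjusted p = 0.902) and by 0.10 at probe 2 (-0.18 to 0.38, adjusted p = 0.599). Probe 1 read 834, 936 and 956 alone and 1091, 831 and 872 mixed. Mixed replicate 1 was the highest array at both PDK2 probes, and without it the differences were -0.09 and -0.02. The remaining mixed arrays lay within or just below the alone range at probe 1.

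PDK3 had 1 probe, which read 554, 569.9 and 581 alone and 567, 621 and 597 mixed. Its groups overlapped, and the difference was 0.07 (-0.10 to 0.24, limma adjusted p = 0.561). Of 5 tested kinase probes 1 was called, where 11.2% of all tested probes were, and the other 4 had differences between -0.18 and 0.10. Whether the kinase isoforms change together was not tested.

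The phosphatases had 3 tested probes and 0 calls, with 1 probe at an unadjusted limma p under 0.05, as were 31.4% of all tested probes, and 0 calls by the methods' t-test. PDP1, the calcium-stimulated isoform, read 141, 127 and 117 at probe 1 alone and 114, 102 and 98.1 mixed. Its groups did not overlap at that probe, with a difference of -0.29 (-0.53 to -0.05, adjusted p = 0.105). Probe 2 of PDP1, which starts close by in the same transcript (base 1864 against base 1790), read 39.8 to 40.7 alone and 35.7 to 41.5 mixed. Here the groups overlapped and the difference was -0.03 (-0.23 to 0.17, adjusted p = 0.840), so the neighbouring PDP1 probes gave different values.

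PDP2, the isoform that does not depend on calcium, was dim. Its probe read 26, 43.8 and 39.7 alone and 25.6, 30.6 and 24.1 mixed, with a difference of -0.42 (-0.91 to 0.07, limma adjusted p = 0.216). Alone replicate 1 lay among the mixed arrays, well below the other alone arrays. Without it, PDP2 was called, at -0.65 (adjusted p = 0.0201), where 26.4% of all probes were called, against 11.2% with all arrays. Without alone replicate 2 the PDP2 difference was -0.27 (0.474), where 0.09% of all probes were called. Over all alternatives the adjusted p of PDP2 ran from 0.0201 to 0.474. Normexp background correction, which acts most on dim probes, gave -0.09 (adjusted p = 0.431).

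Among the complex subunits, PDHA1 was the one with calls. PDHA1 carries the sites that the kinases phosphorylate and is the catalytic part of E1. Probe 1 read 2360.4, 2361 and 2240.0 alone and 1714, 1808 and 1705 mixed. All mixed arrays were below all alone arrays by more than the spread within either group. The difference was -0.41 (-0.58 to -0.25, SE 0.07), so it fell by 24.9% (limma adjusted p = 0.0220).

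Probe 3 of PDHA1 gave nearly the same size of change. It read 4214, 4200.0 and 4156 alone and 3580.4, 3005 and 3038 mixed, and its groups did not overlap. The difference was -0.39 (-0.60 to -0.18, SE 0.09), so it fell by 23.7% (limma adjusted p = 0.0417). Mixed replicate 1 lay between the alone arrays and the other mixed arrays, and without it the difference was -0.47.

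Probe 2 of PDHA1, placed between them in the transcript, was not called. It read 647, 471 and 502 alone and 514, 444 and 437 mixed, and its groups overlapped because mixed replicate 1 was above 2 of the alone arrays. The difference was -0.21 (-0.54 to 0.12, limma adjusted p = 0.353). It was -0.07 without alone replicate 1, the brightest array at this probe (adjusted p = 0.617).

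As with PDK4, the adjusted p of the called PDHA1 probes moved across the threshold. With the replicate block it was 0.0385 at probe 1 and 0.0535 at probe 3. Leaving out alone replicate 2, alone replicate 3, mixed replicate 2 or mixed replicate 3 gave 0.0978, 0.0878, 0.0829 and 0.104 at probe 1, and 0.137, 0.135, 0.14 and 0.15 at probe 3, in that order. Without alone replicate 1 or mixed replicate 1 both probes were called, where 26.4% and 7.46% of all probes were called. The ranges over all alternatives were 0.0109 to 0.104 at probe 1 and 0.0171 to 0.15 at probe 3. The mean of the 3 PDHA1 probes differed by -0.34 (adjusted p = 0.0538).

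**Figure D3:**
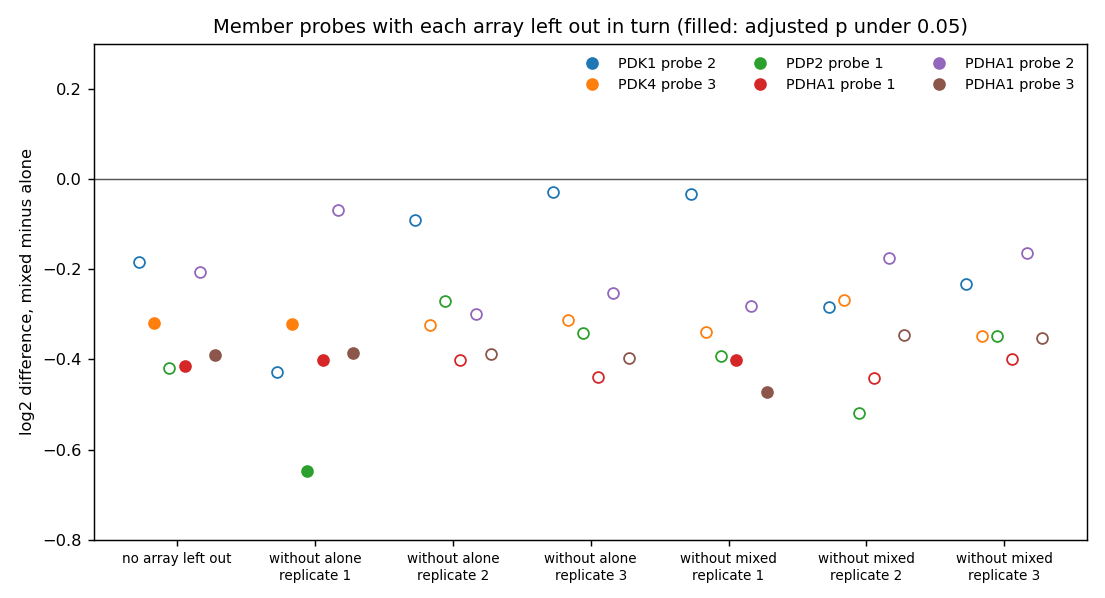
Log2 difference (mixed minus alone) of 6 member probes with all arrays and with each array left out in turn, filled where the adjusted p was under 0.05. The PDK4 probe 3 and the PDHA1 probe 1 and 3 values stay between -0.27 and -0.47, while PDK1 probe 2 moves between -0.43 and -0.03 and PDP2 between -0.65 and -0.27.

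PDHB, the partner of PDHA1 in E1, did not pass the test. Probe 1 read 4449, 4265 and 4246 alone and 4107, 4013 and 3877 mixed, with groups that did not overlap and a difference of -0.11 (-0.27 to 0.05, limma adjusted p = 0.304). At probe 2 the difference was -0.08 (-0.26 to 0.09, adjusted p = 0.491) and the groups overlapped. Neither PDHB interval reached the size of the PDHA1 difference at probe 1 or 3, but no test was made of PDHB against PDHA1.

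DLAT had 4 probes, with differences of 0.11, -0.04, 0.08 and 0.02 from probe 1 to probe 4. Its groups overlapped at every probe, and limma adjusted p-values ran from 0.515 to 0.871. Probe 3 read 1094, 952 and 964 alone and 1049, 1036 and 1082 mixed. The widest DLAT interval, at probe 1, was -0.14 to 0.36.

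PDHX had 3 probes and differences of -0.08, -0.09 and -0.16, with limma adjusted p-values of 0.447, 0.396 and 0.249. Probe 2 read 3433, 3224 and 3438 alone and 3108, 3157 and 3204 mixed. The mixed arrays were below the alone arrays at probes 1 and 2 and overlapped them at probe 3. The aligned probes of DLAT and PDHX thus had differences of -0.04 (-0.22 to 0.15) and -0.08 (-0.24 to 0.08), neither of them called.

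**Figure D4:**
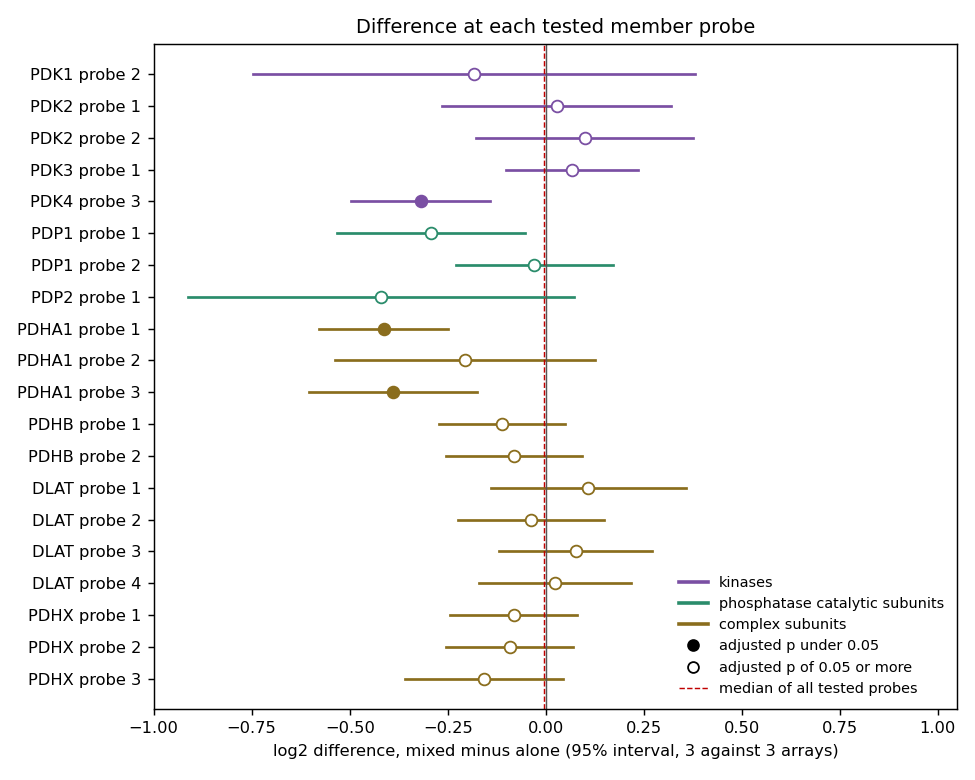
Log2 difference (mixed minus alone) with its 95% interval from limma at each of the 20 tested member probes, coloured by role and filled where the adjusted p was under 0.05. The filled points are PDK4 probe 3 and PDHA1 probes 1 and 3, and the red dashed line is the median of all tested probes.

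Scaling mattered for the small differences. When arrays were scaled to 8 of the 10 Agilent spike-in controls, those bright on every array, each of which was 0.10 to 0.24 higher on the mixed slide, the median of all probes moved by -0.16. The differences of both PDK2 probes, PDK3 and DLAT probes 1, 3 and 4 then lay below 0 (-0.05 to -0.14), and no kinase probe was called. Under that scaling PDK4 probe 3 was at -0.48 (adjusted p = 0.0740), PDHA1 probe 1 at -0.58 (0.0469) and PDHA1 probe 3 at -0.55 (0.0575).

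The label of mixed replicate 2 gives a different mixing ratio, and what that ratio does was not tested. Over the 20 tested member probes it was the lowest mixed array at 8, the highest at 6 and between the others at 6. Without it, PDK4 probe 3 differed by -0.27, PDHA1 probe 1 by -0.44 and PDHA1 probe 3 by -0.35.

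The genes around the complex were taken from 5 lists of 50 genes, of which 45 had a probe of that name. Of 96 tested probes, 7 were called lower and 2 higher in mixed culture, against 11.2% called over all tested probes. One of the higher calls, a PPARGC1A probe, passed the background filter only through the mixed group and is not used as a result. With all 6 arrays required to be well above background, 10 of 95 list probes were called, against 11.9% of all. Without alone replicate 2 or 3, or mixed replicate 2 or 3, limma called 0 of the 96 probes. There, 20 to 25 were at an unadjusted p under 0.05, where 21.9% to 23% of all probes were. The 9 probes for E3, the lipoylation enzymes and the phosphatase regulator PDPR held 0 calls with limma, 5 at an unadjusted p under 0.05 (31.4% over all tested probes) and 0 calls by the methods' t-test, and their median difference was 0.01. DLD, the shared E3 enzyme, differed by 0.01 (-0.21 to 0.22, adjusted p = 0.972) and 0.05 (-0.10 to 0.21, adjusted p = 0.620). At the brighter DLD probe the arrays read 8336, 7980.3 and 8077 alone and 8378, 8449.8 and 8456 mixed.

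The list of pyruvate entry and other fates of pyruvate had 19 tested probes and 0 calls with limma, 4 at an unadjusted p under 0.05 (again against 31.4% of all), and 1 call by the methods' t-test. Its median difference was -0.11, with 14 of 19 probes below 0 against 50.6% of all tested probes. LDHA, which turns pyruvate into lactate, differed by -0.17, -0.18 and -0.23 at its probes (adjusted p = 0.182, 0.145 and 0.0771). At LDHA probe 3 the arrays read 82489, 76969 and 76567 alone and 68347, 67180.3 and 64954 mixed, so its groups did not overlap. MPC2, a subunit of the mitochondrial pyruvate carrier, differed by -0.18 (-0.33 to -0.02, adjusted p = 0.121) and -0.11 (-0.27 to 0.04, adjusted p = 0.277).

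Of the sister complexes that use the same design, 1 of 14 tested probes was called, against 11.2% of all tested probes. PPM1K, the phosphatase that activates the branched-chain 2-oxo acid dehydrogenase, rose from 399, 346 and 337 units to 667, 580.4 and 672. All mixed arrays were above all alone arrays, and the difference was 0.83 (0.59 to 1.07, limma adjusted p = 0.0139). Without single arrays its adjusted p was 0.0688 (alone replicate 2), 0.0749 (alone replicate 3), 0.0722 (mixed replicate 2) and 0.0788 (mixed replicate 3), within a range of 0.00514 to 0.0788 over the alternatives. The kinase of that complex, BCKDK, had 3 probes between -0.18 and -0.13, none of them called.

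Of the 5 lists, the TCA cycle had the highest share of probes below 0. Of 35 tested probes, 34 had a difference below 0, the median was -0.22, and 5 were called, all lower (5.72% of all tested probes were), among them IDH3A at 2 of 3 probes and FH at its 1. With spike-in scaling the median was -0.38, against -0.17 over all tested probes, and 1 of the probes was called, against 3.58% of all. The mixed arrays were wholly below the alone arrays at 21 of the 35 probes, against 19.4% of all tested probes.

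FH, which hydrates fumarate to malate, read 3070.5, 3054 and 2972 alone and 2269.5, 2388 and 2159 mixed. Every mixed array was below every alone array, and the difference was -0.42 (-0.59 to -0.25, limma adjusted p = 0.0231). IDH3A, the catalytic subunit of the NAD-dependent isocitrate dehydrogenase, fell by 0.37 on the log2 scale at probe 1 (adjusted p = 0.0253) and fell by 0.38 at probe 2 (0.0327, or 0.0561 with the replicate block), and differed by -0.06 at probe 3 (0.689). With the replicate block, 3 of the 35 probes were called, against 10.6% of all tested probes. Without alone replicate 1 the count was 14, where 26.4% of all probes were called. It was 1 without mixed replicate 1, where 7.46% of all probes were called. Without any one of the other 4 arrays it was 0. There, 9 to 12 probes, and 21.9% to 23% of all probes, had an unadjusted limma p under 0.05.

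**Figure D5:**
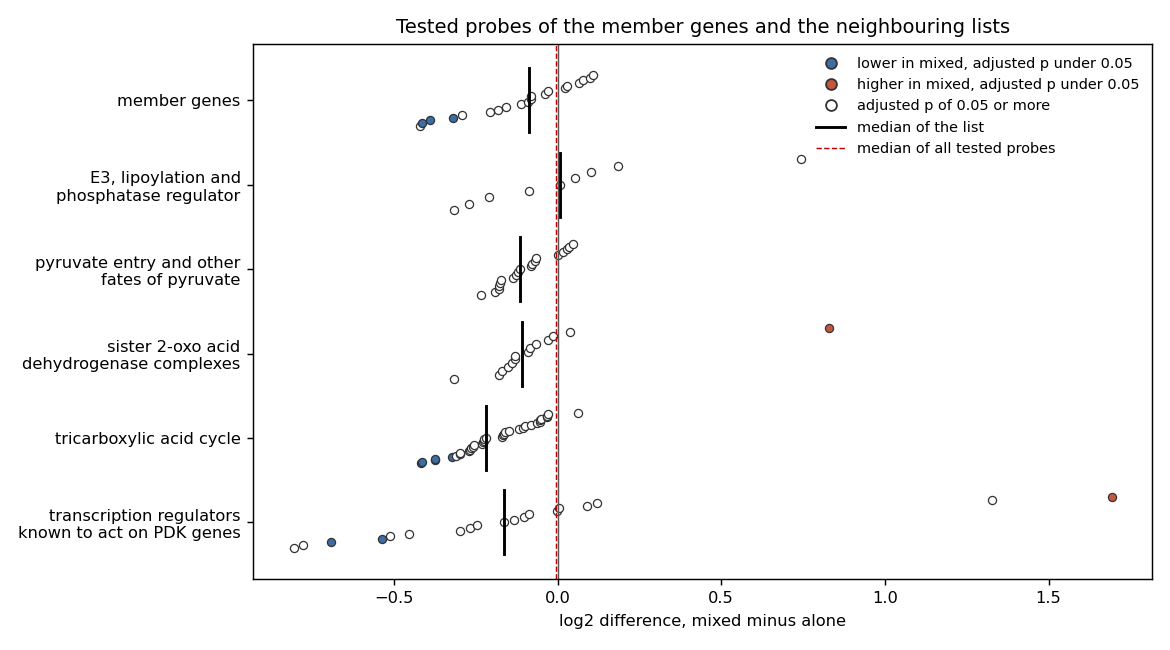
Log2 difference (mixed minus alone) of each tested probe of the member genes and of the 5 lists, with a black bar at each list's median and a red dashed line at the median of all tested probes. Blue points are called lower and red points called higher in mixed culture. The TCA cycle probes lie almost all below 0 with a median of -0.22, and the points called higher are PPM1K and a PPARGC1A probe that passed the background filter only through the mixed group.

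The transcription regulators known to act on PDK genes had 19 tested probes with 2 called lower and 1 higher. Over all tested probes 11.2% were called. With the replicate block 5 of the regulator probes were called, against 10.6% of all tested probes. The call higher without the block was a PPARGC1A probe that passed the filter only through the mixed group. With all 6 arrays required to be well above background, 18 probes were tested and 2 called, against 11.9% called over all probes. HIF1A, the oxygen-regulated subunit of HIF-1, read 486, 691 and 708 alone and 381, 380.1 and 389 mixed at probe 2. Alone replicate 1 lay between the other alone arrays and the mixed arrays, the same array that was low at PDK1. The HIF1A difference was -0.69 at probe 2 (-1.05 to -0.33, limma adjusted p = 0.0370), -0.54 at probe 3 (adjusted p = 0.0349) and -0.51 at probe 1 (0.0912). At probes 2 and 3 the adjusted p was 0.0678 and 0.0666 with spike-in scaling, and 0.11 and 0.0911 by the methods' t-test, so neither was called there.

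PPARGC1A, the coactivator PGC-1α that drives mitochondrial gene expression, read 16, 17.5 and 20.9 at probe 3 alone and 40.4, 73.7 and 66.6 mixed. It was well above background on 5 of 6 arrays, alone replicate 1 being the exception, so it entered the test only through the mixed group, where it is high, and its call is not used as a result. Its probe 4 read 113, 161 and 180.0 alone and 205, 522 and 485 mixed, with a difference of 1.33 (0.43 to 2.23, adjusted p = 0.0685), or 0.0339 with the replicate block. The other 3 PPARGC1A probes were too dim to test. PPARD, a lipid-sensing nuclear receptor, differed by -0.78 and -0.80 (adjusted p = 0.0556 and 0.0624).

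Across the 6 arrays, the named genes whose pattern was most like PDK4 probe 3, among 15743 probes with a gene name that were well above background on all arrays, included ACTR10, P4HA1, C7H1orf21 and LAMB3, with Pearson's r of 0.994 to 0.997. The most opposite were TRIM28, LIMK2, PNPLA7, RCOR3 and COBLL1, with r of -0.992 to -1.0. The arrays fall into the 2 cultures, each on its own slide, so these values describe mainly a shared difference between the groups. P4HA1, a collagen prolyl hydroxylase, differed by -0.52 (limma adjusted p = 0.0206).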

How the data were processed

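RNA of GFP-sorted RasV12 cells from culture alone (3 arrays) and mixed culture (3 arrays) was measured on 1-colour Agilent canine arrays. The authors deposited an intensity per spot from Feature Extraction 10.10.1.1 (processed signal, mean signal and local background) and a table of log2 values. That table follows the log2 processed signal minus each array's 75th percentile for 26529 of the tested probes.

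Control and flagged spots were left out, spots of a probe averaged and log2 values taken minus the array's 75th percentile. Probes tested were those well above background on every array of 1 group or both. Groups were compared with limma 3.58.1 (lmFit, eBayes) in R 4.3.3 at an adjusted p under 0.05, and tables made with Python 3.11.15, pandas 2.3.3 and matplotlib 3.10.9. On simulated data of 26529 probes, 76% of 2-fold and 95% of 4-fold changes were called, with 7 false calls. Changes as small as the member differences, at most 0.42 in size on the log2 scale, were not simulated. The number of arrays limits the precision.

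Member genes, lists and tests were chosen with earlier results of these data known. All member probes, list genes called, and LDHA, DLD and MPC2 were to be named (MPC1 had no probe of that name), with the 5 genes most and least correlated with PDK4. Some genes that this rule names are not reported here. BCKDK and PPARD were added after their values were seen. Symbols of the 10 members all occur in RefSeq. The replicate numbers are shared by the groups. After removing group means, the arrays of the same number correlated at 0.349, 0.162 and 0.296, and those of different number at -0.329 to 0.238. Alone replicate 2 correlated more with mixed replicate 3 (0.238) than with mixed replicate 2 (0.162), so these values do not settle a pairing. The fit reported has no block, and the replicate number was fitted as a block in an alternative. With that block, PDK4 probe 3 and PDHA1 probe 3 were not called. In both groups the number is also the position on the slide. Alternatives were another scaling, background correction, filter, source of values, test, block, probe averaging and each array left out.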

Additional observations from a re-analysis of the deposited data

How the results depend on the processing

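The counts moved with the setting. Member probes called were 3 in the fit reported, where 11.2% of all tested probes were called. There was 1 with spike-in scaling (3.58% of all), 1 with the replicate block (10.6% of all) and 1 of 10 genes with gene means (9.66% of all). The methods' t-test called 1 (3.12% of all), and 6 before adjustment (27.6% of all). With no filter on dim probes there were 0 (4 at an unadjusted limma p under 0.05, where 17.9% of all probes were). With an array left out there were 0 to 4 (3 to 5 at an unadjusted p under 0.05, where 21.9% to 41.8% of all probes were). For the 5 lists the count was 9, where 11.2% of all tested probes were called. It was 3 with spike-in scaling (3.58% of all), 20 with normexp (15% of all) and 4 of 44 genes with gene means (9.66% of all). With no filter it was 0 (31 at an unadjusted p under 0.05, where 17.9% of all probes were). With an array left out it was 0 to 23, where 0.0263% to 26.4% of all probes were called. For all tested probes the count was 2978. It was 949 with spike-in scaling, 3973 with normexp, 828 with the t-test and 12 with no filter. It was 1897 genes with gene means and 7 to 7335 probes with an array left out. The highest count came without alone replicate 1, and counts of 7 to 24 came without alone replicate 2 or 3 or mixed replicate 2 or 3. The cause was not tested. The block left 2825 calls over all probes and changed the call at PDK4 probe 3 and PDHA1 probe 3 among members.

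Of 300 member values under the alternatives, 258 kept direction and call, 26 lost the call and 1 gained it. Most values were of uncalled probes, which had no call to lose, and all 26 losses were at the 3 called probes. Of 15 alternatives each, the call held in 5 at PDK4 probe 3, 9 at PDHA1 probe 1 and 5 at PDHA1 probe 3. The other 15 values changed sign, none of them at a called probe. With spike-in scaling these were PDK2 probes 1 and 2 (-0.13 and -0.063), PDK3 (-0.095) and DLAT probes 1, 3 and 4 (-0.053, -0.086 and -0.14). With normexp PDP1 probe 2 was 0.054, and the DLAT gene mean, set against probe 2, was 0.042. With an array left out the ranges were -0.092 to 0.10 (PDK2 probe 1), -0.019 to 0.16 (PDK2 probe 2), -0.067 to 0.041 (PDP1 probe 2), -0.093 to 0.0072 (DLAT probe 2) and -0.016 to 0.087 (DLAT probe 4). Slide was not fitted as a block, because a slide held arrays of 1 culture. Dim probes (PDK1 probe 1, PDK4 probes 1 and 2) give no difference at this signal over background.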
